A study of Homo sapiens with 6 samples.

Results

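Serine is made from the glycolytic intermediate 3-phosphoglycerate in consecutive steps, which are catalysed by phosphoglycerate dehydrogenase (*PHGDH*), phosphoserine aminotransferase (*PSAT1*) and phosphoserine phosphatase (*PSPH*). Serine hydroxymethyltransferases then pass a carbon of serine to tetrahydrofolate. In mitochondria this carbon is oxidised by *MTHFD2* and released as formate by *MTHFD1L*, and in the cytosol *MTHFD1* takes formate into folates that feed purine, thymidylate and methionine synthesis. *SHMT2* is the mitochondrial and *SHMT1* the cytosolic hydroxymethyltransferase, and *ALDH1L2* oxidises mitochondrial formyl-folate. *PSAT1*, *PHGDH*, *SHMT2* and *MTHFD2* are among the known targets of the stress transcription factor ATF4. They are not a full list, and other genes of this paragraph may also be ATF4 targets. *MTHFD2* is low in most adult tissues and raised in many tumours.

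The 9 genes named above were chosen by gene name, and 8 of them have a row among the 17222 gene names of the count table. *ALDH1L2* was not analysed here. The data are RNA-seq read counts of H226 cells, an established human lung squamous carcinoma line, 48 h after transient transfection with 1 antisense oligonucleotide. ASO_LINC#3, directed against the long noncoding RNA *SWINGN* (LINC00565), was compared with the control oligonucleotide ASO_CTRL, with 3 libraries in each group. The labels name no other treatment or genotype. The study gives biological replication as its general practice, but neither the labels nor the methods for these libraries say that they came from separate cultures, and p-values measure the spread between them. The *SWINGN* transcript was not analysed here, so no check of the knockdown is given.

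Reads on genes ranged from 3686828 to 10546786 per library, and ASO_LINC#3 replicate 3 had the fewest. Its chi-square per degree of freedom was 13.0 and 14.0 against replicates 1 and 2 of ASO_LINC#3, which had 2.50 between them. Pairs of control libraries had 11.9, 8.25 and 6.94. The pairs with ASO_LINC#3 replicate 3 thus had the largest values, and replicates 1 and 2 of ASO_LINC#3 the smallest. This measure also depends on the number of reads, so it does not rank the pairs by their likeness alone. Of 6 markers of squamous epithelium, 2 had a row in the table. *KRT5* was at 91.6 to 119 CPM in ASO_CTRL and 63.0 to 77.8 CPM in ASO_LINC#3, *KRT6A* had at most 1 read in the control libraries, and the other 4 were not analysed here. The squamous name is taken from the study, and *KRT5* as the only marker of the 6 above 1 CPM in every library does not establish it. All 4 mesothelial markers were above 1 CPM in every library, with a sum of 629.9 to 844 CPM in ASO_CTRL and 209.8 to 323 CPM in ASO_LINC#3. *CALB2* made up most of this sum (513 to 707 against 119 to 208 CPM), *UPK3B* was also lower without overlap, and *MSLN* and *WT1* overlapped between the groups. The part of these marker genes in the results was not tested. In RNA from a whole culture, fewer cells that use a gene and less of its RNA per cell cannot be told apart.

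The 250 bases before the annotated start of *PSAT1* and *MTHFD2*, the members with the largest rise, are shown because both moved together and both are regarded as ATF4 targets. They come from RefSeq (GRCh38.p14), which matched 6 of the 8 members, and *PSPH* and *SHMT2* were not matched. Both strands were searched for TGATGNAA, the core of the element bound by ATF4 with its partners, for CACGTG, the E-box bound by MYC, and for TGACNNNGC, the core of the element bound by NFE2L2. Matches are in capitals.
*PSAT1*, plus strand, chr9:78296875-78297124: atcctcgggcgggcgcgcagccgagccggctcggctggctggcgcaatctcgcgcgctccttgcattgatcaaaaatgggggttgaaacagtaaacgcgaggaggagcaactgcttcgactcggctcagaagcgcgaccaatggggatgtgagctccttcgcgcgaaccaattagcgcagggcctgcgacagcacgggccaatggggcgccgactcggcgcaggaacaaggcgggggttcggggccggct
*MTHFD2*, plus strand, chr2:74198365-74198614: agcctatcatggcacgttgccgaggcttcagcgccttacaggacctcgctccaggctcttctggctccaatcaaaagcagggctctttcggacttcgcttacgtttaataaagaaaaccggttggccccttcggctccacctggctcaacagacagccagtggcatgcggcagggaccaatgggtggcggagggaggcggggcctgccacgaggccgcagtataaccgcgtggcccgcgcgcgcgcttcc

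Neither window holds any of the 3 motifs, and the same was the case for *PHGDH* and *SHMT1*. Matches lay before the starts of *MTHFD1L* and *MTHFD1*, neither of which passed the test. *MTHFD1L*, which has 4 annotated starts, holds TGATGCAA and CACGTG before 2 of them. The windows of these 2 starts overlap, and each motif lies at the same genomic bases in both. *MTHFD1* holds CACGTG. These 3 windows of 30 bases show the matches.
*MTHFD1L*, plus strand, chr6:150866346-150866375: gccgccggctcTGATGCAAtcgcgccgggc
*MTHFD1L*, plus strand, chr6:150866320-150866349: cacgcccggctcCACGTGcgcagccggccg
*MTHFD1*, plus strand, chr14:64388323-64388352: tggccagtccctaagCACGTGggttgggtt

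Among all 35116 RefSeq promoter windows of this length, 3.14% held TGATGNAA, 6.34% held CACGTG, whose letters read the same on both strands, and 10.9% held TGACNNNGC. A match describes letters in this window only, and its absence says nothing of binding elsewhere at the gene.

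After ASO_LINC#3, *PSAT1* and *MTHFD2* were each nearly doubled and *SHMT2* was 1.59-fold higher, while the remaining 5 members did not pass the test. Calls required a change beyond 0.5 on the log2 scale together with an adjusted p under 0.01 (edgeR's quasi-likelihood test, Benjamini-Hochberg over 14660 genes, which include all 8 members). The 3 called members were all higher, and none was lower, against 4.91% of all tested genes called higher, 2.63% called lower and 7.54% called in either direction. The median log2 fold change of the 8 members was 0.12, beside −0.0027 for all tested genes, and 4 members lay above and 4 below 0. In 7 of the 8 the CPM (read counts scaled to library size, with TMM factors) of the groups did not overlap, which was also the case for 36.1% of all tested genes. ASO_LINC#3 was the higher group in 4 of them, as in 18.7% of all tested genes, and the lower in 3, as in 17.3%.

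**Figure D1:**
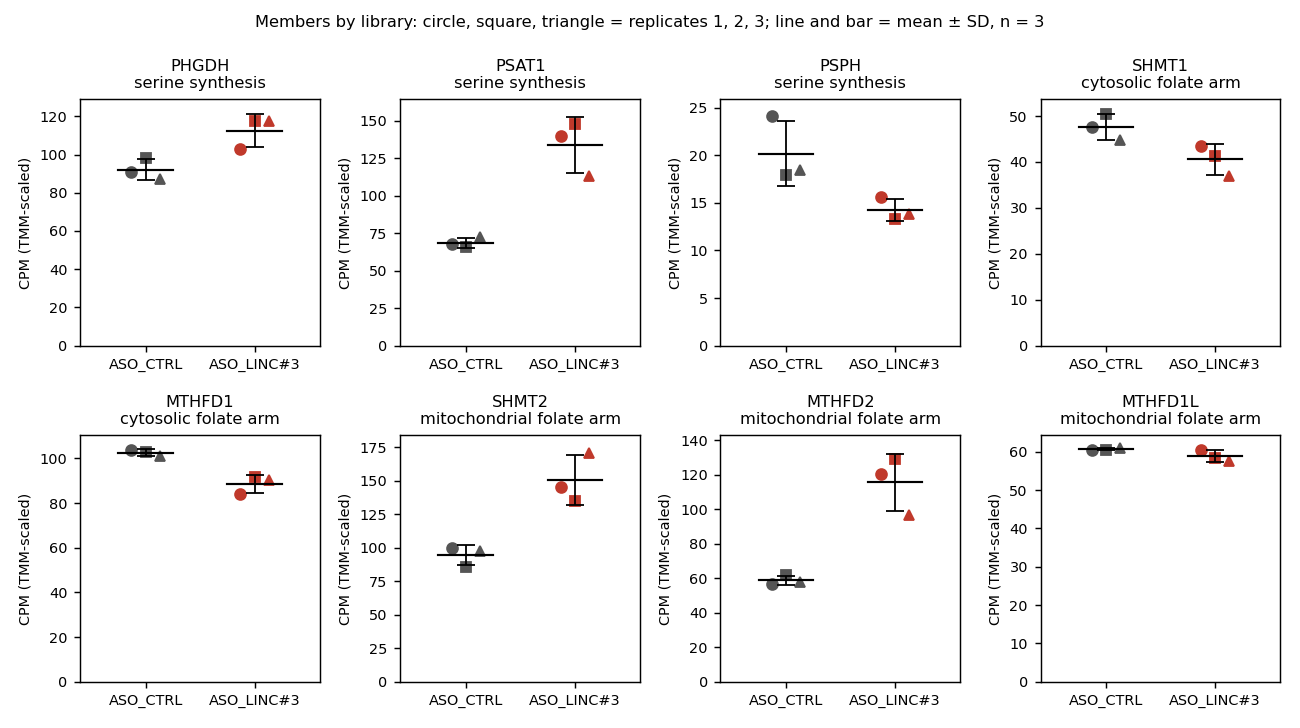
TMM-scaled CPM of the 8 members in each library, with an axis from 0 in every panel, ASO_CTRL in grey and ASO_LINC#3 in red, and the mean ± SD of 3 libraries as line and bar. *PSAT1*, *SHMT2* and *MTHFD2* stand well above their controls, *PHGDH* stands slightly above, *PSPH*, *SHMT1* and *MTHFD1* stand below, and *MTHFD1L* overlaps.

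The 3 steps of serine synthesis did not move alike. *PSAT1*, on the plus strand of chromosome 9 of GRCh37 from 80912041 to 80945009, encodes the aminotransferase of the middle step, which uses glutamate as the amino donor. It had 67.9, 65.6 and 72.3 CPM in ASO_CTRL replicates 1, 2 and 3, and 140.2, 148 and 113 CPM in ASO_LINC#3 replicates 1, 2 and 3. The groups were far apart, and the lowest of the ASO_LINC#3 libraries was replicate 3. The mean rose from 68.6 ± 3.43 to 134 ± 18.4 CPM (mean ± SD, 3 libraries a group). On the log2 scale the rise was 0.97, with an SE of 0.14 and an edgeR adjusted p of 0.00125. The call was kept in 5 of 6 fits that each left out 1 library and lost without ASO_CTRL replicate 3, at a log2 fold change of 1.00 and an adjusted p of 0.0104.

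*PHGDH*, on the plus strand of chromosome 1 from 120191034 to 120286841, encodes the dehydrogenase that commits 3-phosphoglycerate to serine. Its CPM were 90.8, 98.1 and 87.2 in ASO_CTRL and 103, 118 and 117 in ASO_LINC#3. All 3 ASO_LINC#3 libraries lay above the controls, but by little. The difference was 0.29 on the log2 scale (SE 0.13, edgeR adjusted p = 0.140), and its 95% interval ran from 0.01 to 0.57, so the change of *PSAT1* lay outside that interval. *PSPH*, on the minus strand of chromosome 7 from 56078744 to 56119297, encodes the phosphatase that releases serine. It was the least counted member, with 51 to 194 reads per library, and had 24.1, 17.9 and 18.5 CPM in ASO_CTRL and 15.6, 13.3 and 13.8 CPM in ASO_LINC#3. Here the ASO_LINC#3 libraries lay below the controls, with a log2 fold change of −0.50 (95% interval −0.90 to −0.10, adjusted p = 0.0816 from edgeR), which did not pass.

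In the mitochondrial folate arm, *MTHFD2* and *SHMT2* rose and *MTHFD1L* did not. *MTHFD2*, on the plus strand of chromosome 2 from 74413299 to 74444692, encodes the dehydrogenase and cyclohydrolase that turns methylene-folate into formyl-folate. It had 56.7, 61.8 and 57.8 CPM in ASO_CTRL and 121, 129 and 96.8 CPM in ASO_LINC#3. As for *PSAT1*, the groups did not overlap and replicate 3 had the lowest value after ASO_LINC#3. The mean rose from 58.8 ± 2.67 to 115 ± 16.7 CPM, or by 0.98 on the log2 scale (SE 0.14, edgeR adjusted p = 0.00129). The changes of ASO_LINC#3 replicates 1, 2 and 3 against the control mean were 1.03, 1.13 and 0.72 for *MTHFD2*, beside 1.03, 1.11 and 0.72 for *PSAT1*. Without ASO_CTRL replicate 3 the call of *MTHFD2* was lost as well (log2 fold change 0.96, adjusted p = 0.0142). It was kept in the other 5 such fits. In the annotation 21.7% of the exon bases of *MTHFD2* coincide with exons of *SLC4A5* on the opposite strand, and the strand setting of the counting is not given. *SLC4A5* had 2 to 20 reads per library, beside 357 to 820 for *MTHFD2*.

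*SHMT2*, on the plus strand of chromosome 12 from 57623356 to 57628718, encodes the enzyme that splits serine into glycine and a folate-bound carbon in mitochondria. Its CPM were 100.1, 86.0 and 98.0 in ASO_CTRL and 145, 135 and 171 in ASO_LINC#3. The groups did not overlap, and in contrast to *PSAT1* and *MTHFD2*, replicate 3 had the highest value after ASO_LINC#3. The mean rose from 94.7 ± 7.57 to 151 ± 18.5 CPM, or by 0.67 on the log2 scale (SE 0.14, edgeR adjusted p = 0.00830). This call was close to the threshold. It was lost on leaving out any single control library, or replicate 1 or replicate 2 of ASO_LINC#3, with adjusted p-values from 0.0155 to 0.0421, and kept without ASO_LINC#3 replicate 3 (adjusted p = 0.00257). On the opposite strand, 214 exon bases of *SHMT2* (7.3%) coincide with exons of the long noncoding RNA ENSG00000276727, which was not analysed here. The last 33 bases of *SHMT2* coincide with an exon of *NDUFA4L2* on the opposite strand, a gene known to be induced by hypoxia. *NDUFA4L2* had 0, 0 and 3 reads in ASO_CTRL and 28, 18 and 42 reads in ASO_LINC#3, beside 631 to 989 reads of *SHMT2* in the latter.

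*MTHFD1L*, on the plus strand of chromosome 6 from 151186815 to 151423023, encodes the ligase that yields formate in mitochondria. It was the steadiest member, at 60.5, 60.6 and 61.1 CPM in ASO_CTRL and 60.6, 58.4 and 57.5 CPM in ASO_LINC#3. The groups overlapped, and the log2 fold change was −0.05 with a 95% interval from −0.31 to 0.22 (adjusted p = 0.836 from edgeR), so a rise of the size of *SHMT2* lay outside the interval.

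Both cytosolic enzymes had values slightly below their controls and neither passed the test. *SHMT1*, on the minus strand of chromosome 17 from 18231174 to 18266877, had 47.7, 50.4 and 44.8 CPM in ASO_CTRL and 43.5, 41.4 and 36.9 CPM in ASO_LINC#3. Its log2 fold change was −0.22 (95% interval −0.52 to 0.07, adjusted p = 0.282 from edgeR). *MTHFD1*, on the plus strand of chromosome 14 from 64854749 to 64930175, joins the activities of *MTHFD2* and *MTHFD1L* in a single cytosolic protein. Its CPM were 104, 103 and 101 in ASO_CTRL and 83.9, 91.7 and 90.3 in ASO_LINC#3, a log2 fold change of −0.21 (95% interval −0.48 to 0.05, adjusted p = 0.253 from edgeR). In both genes the groups did not overlap, with the ASO_LINC#3 libraries lower.

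**Figure D2:**
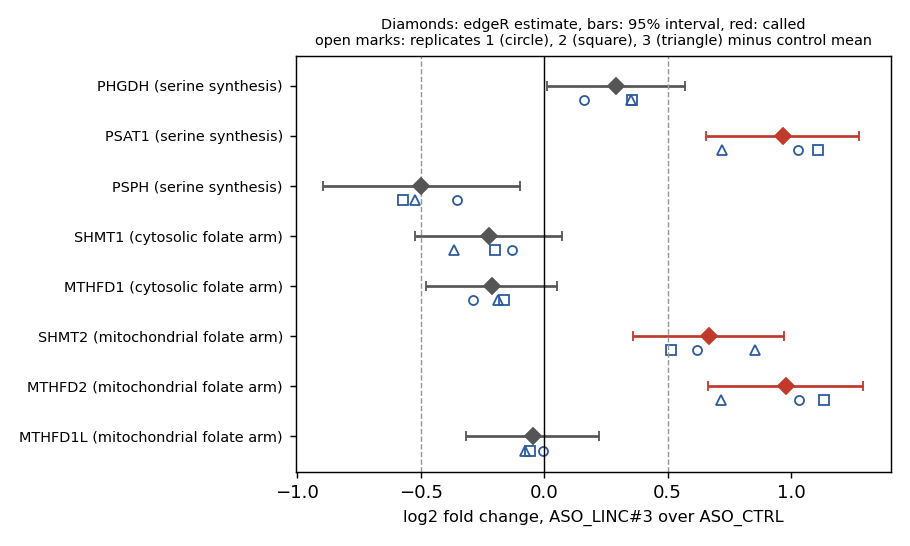
Log2 fold change of ASO_LINC#3 over ASO_CTRL for each member (diamond, edgeR) with its 95% interval, and the change of each ASO_LINC#3 library against the control mean (open marks). The intervals of *PSAT1*, *MTHFD2* and *SHMT2* lie above 0, with estimates of 0.97, 0.98 and 0.67. Those of *PHGDH* (0.01 to 0.57) and *PSPH* (−0.90 to −0.10) also exclude 0, though neither was called. Those of *SHMT1*, *MTHFD1* and *MTHFD1L* include 0. Dashed lines mark the fold change bound of 0.5.

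To compare the mitochondrial with the cytosolic arm, the log2 ratio of each mitochondrial gene to its cytosolic counterpart was taken within each library, where scaling between libraries cancels. Only the change of a ratio between the groups is interpreted, since the ratio itself depends on transcript lengths. The ratio of *SHMT2* to *SHMT1* was 1.06, 0.77 and 1.12 in ASO_CTRL and 1.73, 1.70 and 2.20 in ASO_LINC#3, without overlap. It increased by 0.89 ± 0.20 (standard error) on the log2 scale, that is 1.86-fold. The ratio of *MTHFD2* to *MTHFD1* was −0.87, −0.73 and −0.80 in ASO_CTRL and 0.52, 0.49 and 0.10 in ASO_LINC#3, without overlap. Its increase of 1.17 ± 0.14, or 2.25-fold, was the largest of the 3 pairs. The ratio of *MTHFD1L* to *MTHFD1* was −0.78, −0.76 and −0.72 in ASO_CTRL and −0.47, −0.65 and −0.65 in ASO_LINC#3, also without overlap. It increased by 0.17 ± 0.06, with log2 fold changes of −0.05 for *MTHFD1L* and −0.21 for *MTHFD1*. For each of the 3 pairs the exact permutation test gave a two-sided p of 0.1, also 0.1 after Benjamini-Hochberg adjustment over the pairs, which is the smallest value that 3 against 3 libraries allow. Across the 6 sets of 5 libraries, the increases ranged from 0.73 to 0.98 for *SHMT2*/*SHMT1*, from 1.10 to 1.31 for *MTHFD2*/*MTHFD1* and from 0.11 to 0.20 for *MTHFD1L*/*MTHFD1*. The last 2 pairs share *MTHFD1*.

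**Figure D3:**
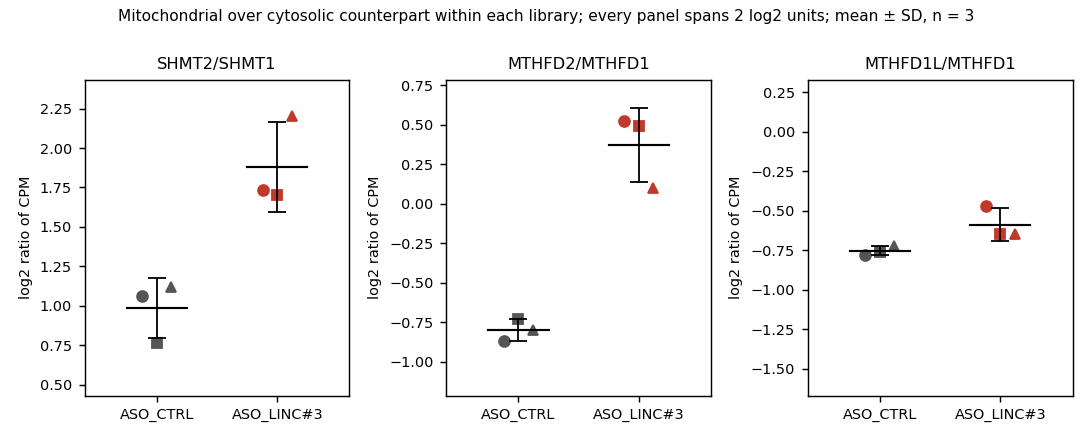
Log2 ratio of CPM of each mitochondrial gene to its cytosolic counterpart in each library, with the mean ± SD of 3 libraries, each panel spanning the same range. The ratio shifted by 0.89 for *SHMT2*/*SHMT1* and by 1.17 for *MTHFD2*/*MTHFD1*, and by 0.17 for *MTHFD1L*/*MTHFD1*.

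The rest of the one-carbon network was read from lists of genes for folate uptake, other folate enzymes, glycine cleavage, purine synthesis, the methionine cycle, and carriers and users of serine. Of their 43 genes, 36 were tested, and 1 was called, *SLC46A1*, which was lower, beside 2.63% of all tested genes called lower. None was called higher, beside 4.91% of all tested genes, and the median log2 fold change was −0.09. Counts this small were not read as a difference from these shares. *SLC46A1*, the proton-coupled folate transporter, had 22.8, 23.1 and 25.4 CPM in ASO_CTRL and 9.55, 10.1 and 14.1 CPM in ASO_LINC#3, without overlap. It fell by 1.11 on the log2 scale (SE 0.19, edgeR adjusted p = 0.00317). It kept its call in 1 of 6 fits that left out a library, that without ASO_LINC#3 replicate 3, and adjusted p-values in the other 5 were up to 0.0239.

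Among the 7 other folate enzymes tested, 6 had a log2 fold change below 0 and none was called. *TYMS*, which uses methylene-folate to make thymidylate, had 323, 318 and 341 CPM in ASO_CTRL and 230.0, 227 and 280.3 in ASO_LINC#3 (log2 fold change −0.41, adjusted p = 0.0465 from edgeR). The groups did not overlap, and *TYMS* was called only without ASO_LINC#3 replicate 3, among the fits that left out a library (log2 fold change −0.52, adjusted p = 0.00261). Of the 6 purine synthesis enzymes, some of whose steps take formyl-folate, none was called. *GART*, whose product carries out such a step, had a log2 fold change of 0.34 (adjusted p = 0.0799) and *ADSL* one of −0.36 (adjusted p = 0.0678). In the glycine cleavage system *GCSH* was at −0.50 (adjusted p = 0.0537) and *DLD* at −0.38 (adjusted p = 0.0684), while *AMT*, the remaining gene tested, was at 0.61 with 13 to 37 reads per library (adjusted p = 0.171). None of the 3 was called. The groups did not overlap in any of them, which was also the case for 36.1% of all tested genes.

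The methionine cycle and transsulfuration list had a median of 0.0025 over 7 tested genes, with 0 called. *MTR*, the methionine synthase, was at 0.45 (adjusted p = 0.154) and *AHCY* at −0.31 (adjusted p = 0.313). *AHCY* was split by library, with 92.9 and 100.5 CPM in ASO_LINC#3 replicates 1 and 2 and 163 CPM in replicate 3, against 141 to 149 CPM in the controls. Without replicate 3 it was called lower (log2 fold change −0.60, adjusted p = 0.00145). Of 8 carriers and users of serine, 6 had values above 0 and 0 were called. *SFXN1*, the mitochondrial serine carrier, had 54.4, 63.3 and 67.0 CPM in ASO_CTRL and 84.8, 91.9 and 79.2 CPM in ASO_LINC#3 (log2 fold change 0.47, adjusted p = 0.0371), and *SFXN3*, its relative, was at 0.77 (adjusted p = 0.0155), and was called in DESeq2 (0.77, adjusted p = 0.00506). *SFXN1* passed both thresholds without ASO_LINC#3 replicate 3 (log2 fold change 0.52, adjusted p = 0.00674).

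Of 5 glycolytic genes around 3-phosphoglycerate, 2 were called higher, beside 4.91% of all tested genes, and both act upstream of *PHGDH*. The remaining genes of this list were not called. The median log2 fold change of the 5 was 0.24, with 2 of them below 0 and the lowest at −0.10. *PGK1*, whose product makes 3-phosphoglycerate, rose from 692 ± 28.4 to 1809 ± 186 CPM (log2 fold change 1.39, adjusted p = 5.99e-05 from edgeR), and kept its call in all 6 fits that left out a library. *GAPDH* rose by 0.80 (adjusted p = 0.00868), with 4616 CPM in ASO_LINC#3 replicate 3 against 3096 and 3040.5 in the others, and kept its call in 2 of the 6 fits. It was lost without any of the control libraries (adjusted p from 0.0300 to 0.0400) or without ASO_LINC#3 replicate 1 (0.0184), and with a filter of at least 10 reads in every library (0.0101).

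**Figure D4:**
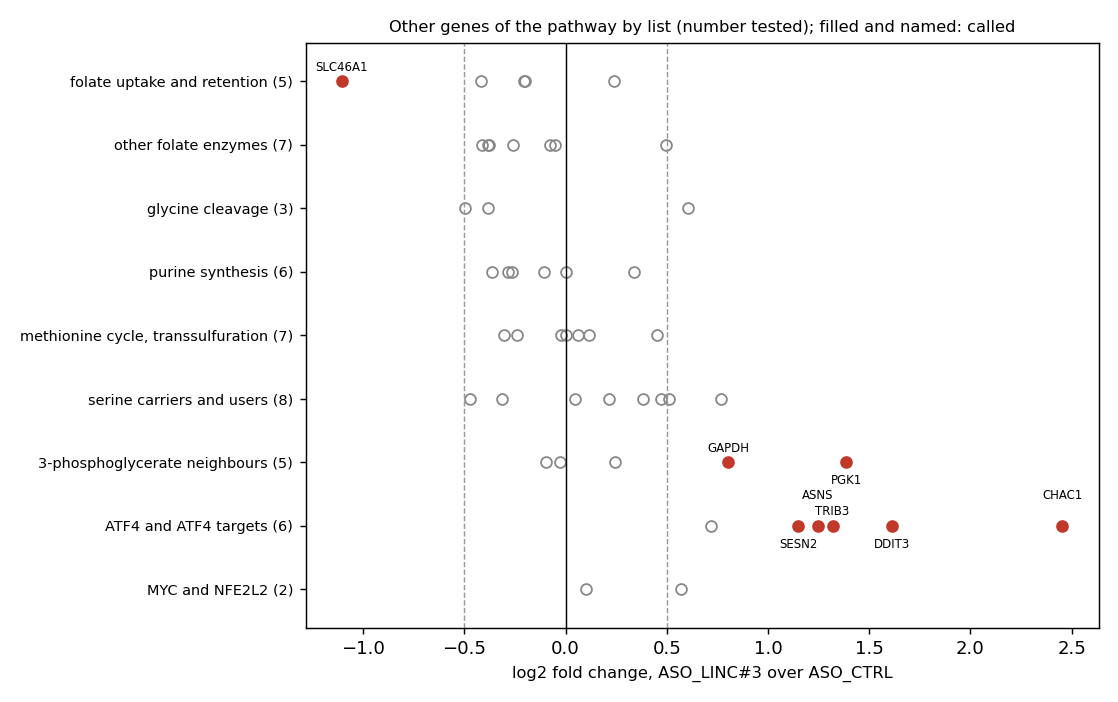
Log2 fold change of the 49 tested genes of the other lists, 1 circle per gene, with filled and named circles for called genes. In the folate, glycine, purine and methionine lists the 1 called gene is *SLC46A1* at −1.11, and the called increases lie with *GAPDH*, *PGK1* and the targets of ATF4.

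Regulators of the pathway were read from the same fit. The mRNA of *ATF4*, whose product is controlled mainly by translation, had 90.0, 82.6 and 83.1 CPM in ASO_CTRL and 116, 126 and 179.7 CPM in ASO_LINC#3, with a log2 fold change of 0.72 that did not pass the adjusted p-value (0.0150 from edgeR). The 5 listed ATF4 targets outside serine metabolism were chosen with earlier results of these data known, so their count is only a description. All 5 were called higher, beside 4.91% of all tested genes. Among them were *ASNS*, the asparagine synthetase, at 1.25 (adjusted p = 0.000448) and the pseudokinase gene *TRIB3* at 1.32 (adjusted p = 0.000115). *DDIT3*, which encodes the stress factor CHOP, was at 1.61 (adjusted p = 5.21e-05) and *SESN2*, which restrains mTORC1, at 1.15 (adjusted p = 0.000560). These 4 were called in all 6 fits that left out a library. The fifth was *CHAC1*, a glutathione-degrading enzyme with 4 to 12 reads per library in ASO_CTRL and 25 to 39 in ASO_LINC#3, whose call (2.46, adjusted p = 0.00162) was lost without replicate 2 or replicate 3 of the control or replicate 1 of ASO_LINC#3 (adjusted p 0.0101 to 0.0169). *MYC* was at 0.57 (adjusted p = 0.0144) and *NFE2L2* at 0.10 (adjusted p = 0.705), with 0.0075 without ASO_LINC#3 replicate 2 and 0.26 without replicate 3, not called in either. *ATF4* and *MYC* passed both thresholds without ASO_LINC#3 replicate 3, at 0.51 and 0.65, and in DESeq2. *PSAT1* had the smallest p-value of the members. Outside the lists, the 5 genes with at least 50 reads on average whose log2 CPM followed it most closely over the 6 libraries were *SLU7*, *S1PR1*, *MAP2K1*, *TRIM8* and *CRK*, with Pearson r between 0.997 and 1.00. These correlations are given as a description, since the libraries share the split into 2 groups.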

How the data were processed

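The authors deposited a table of unnormalized read counts by gene name, which per the labels and methods came from single-end RNA-seq with STAR alignment to hg19. The labels name H226 cells, whereas the RNA-seq methods speak of BJ cells. The counting tool, annotation and strand setting are not given in the sources used here. The 4 rows of reads on no gene (24.8% to 28.1% of each library) were left out. Groups came from the sample titles. In R 4.3.3, edgeR 4.0.16 was used with filterByExpr (14660 genes), TMM and the quasi-likelihood test, and was tested on simulated data. Intervals use the standard error and the moderated degrees of freedom. Library changes and ratios use log2 CPM with a prior count of 2. DESeq2 1.42.0, other scalings and filters, a replicate block and leaving out each library were alternatives. Positions are from a GENCODE annotation lifted to GRCh37. The members and lists were chosen with earlier results of these data known. Genes outside the members were named as follows: up to 4 called genes of a list by p-value, otherwise the 2 with the smallest p, *ATF4*, *MYC* and *NFE2L2*, and 5 genes by likeness to the member with the smallest p. A gene that this rule names is not reported here. *AMT*, *CHAC1*, overlapping neighbours and pseudogenes were added after their values were seen.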

Additional observations from a re-analysis of the deposited data

How the results depend on the processing

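Under DESeq2, 3 other scalings and 2 other filters, *PSAT1*, *MTHFD2* and *SHMT2* stayed called and no other member was. From 0 to 3 members were called higher when 1 library was left out, 0 without ASO_CTRL replicate 3, with log2 fold changes of 0.89 to 1.07 for *PSAT1*, 0.89 to 1.09 for *MTHFD2* and 0.57 to 0.74 for *SHMT2*. Deviations of same-numbered libraries from their group means had correlations of 0.06, −0.15 and −0.18, which cannot settle a pairing with 3 libraries a group. The study's methods name no pairing, so the replicate number was left out of the main fit. With it as a replicate block, *SHMT2* was at 0.66 without a call (adjusted p = 0.0224), and 656 genes were called in all (439 higher, 217 lower), against 1106 (720 and 386). An adjusted p of 0.05 gave 2465 genes (1422 and 1043), and DESeq2 gave 634 lower. Without 1 library the count ran from 359 (ASO_CTRL replicate 3) to 2616 (ASO_LINC#3 replicate 3), with 249 to 1430 higher and 110 to 1186 lower, and 0 to 4 of the other pathway genes lower. *MTHFD1P1* changed sign in 2 such fits and ran from −0.121 to 0.0174, never called. The causes were not tested. The pair of *ALDH1L2* and *ALDH1L1* was not analysed.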

Other observations

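Pseudogene rows of 3 members were looked at after their values were seen. *PSPHP1*, an unprocessed pseudogene of *PSPH* on the same chromosome, had 10.6, 13.1 and 12.2 CPM in ASO_CTRL and 3.09, 2.22 and 5.69 CPM in ASO_LINC#3, a log2 fold change of −1.78 (edgeR adjusted p = 0.00260). It was no longer called when replicate 2 or replicate 3 of ASO_CTRL, or replicate 1 or replicate 2 of ASO_LINC#3, was left out (adjusted p 0.0102 to 0.0207). The fall was larger than the value of −0.50 for *PSPH*, and the difference was not tested. Of the 2767 stretches of 75 bases in *PSPH* transcripts, 23 (0.831%) occur unchanged in *PSPHP1*. *PSAT1P3* was at 1.13 (adjusted p = 0.0244), with 15 to 56 reads per library, passed only without ASO_LINC#3 replicate 3 (1.36, adjusted p = 0.00115), and holds no stretch of 75 bases of *PSAT1* unchanged. *MTHFD1P1* was at −0.07 (adjusted p = 0.826) and shares 82 of the 8165 such stretches of *MTHFD1*.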
